A study of Mus musculus with 11 samples.

Results

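The 40 genes described here encode enzymes that oxidise, hydrolyse and conjugate foreign compounds, the pumps that export them, and 2 nuclear receptors that sense them. They were taken by gene symbol from a list of 40, with no threshold on their values but with earlier results of these data known, and all 40 were among the 24294 symbols measured. They comprise 12 cytochrome P450 enzymes, 9 esterases, hydrolases and redox partners, 9 glutathione transferases, 5 glucuronosyl- and sulfotransferases, 3 efflux transporters and 2 nuclear receptors. RNA from mouse small intestine was sequenced in 11 libraries, of which 3 were labelled ND, 4 HFD and 4 HLJDD. HLJDD are the initials of Huang Lian Jiedu Decoction, a herbal preparation that the series title names in connection with obese mice. The labels neither spell out ND and HFD nor give the strain, genotype, sex, age, dose, duration, diet of the HLJDD mice or stretch of gut. Whether each library is its own animal is not stated either, and p-values therefore cover library-to-library spread that may be technical.

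The gut wall meets drugs, plant compounds and pollutants before the liver does. Cytochrome P450 enzymes of the endoplasmic reticulum add oxygen to such compounds, drawing electrons from their partner Por, and esterases and epoxide hydrolases cleave them. Transferases then attach glutathione, glucuronic acid or sulfate, and ATP-driven pumps of the brush border return the products to the lumen. Many of these genes are under the control of the ligand-activated factors PXR (Nr1i2), CAR (Nr1i3) and AhR, the aryl hydrocarbon receptor, or of the stress factor NRF2. Several members also act on the body's own fatty acids, steroids and bile acids.

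Levels are FPKM, a read count per gene length and library total, so levels of different genes can be set side by side. A gene of 1 kb at 1 FPKM rested on 30.1 to 37.9 reads, and p-values are from limma, adjusted over the 10764 genes that reached 1 FPKM in 3 or more libraries. Log2 differences compare group means on the log2(FPKM + 1) scale, where low genes appear to change less than they do, and a gene is called at an adjusted p under 0.05. Of the 40 members 39 passed this filter, and Cyp1a1 did not. Gsta2 and Cyp2c29 passed only through HFD and HLJDD libraries. Mitochondrial transcripts made up 40.7% of reads in HLJDD replicate 2, 32.4% in HFD replicate 1 and 10.4% to 19.3% in the other 9 libraries. The median log2 difference of all genes tested was -0.20 for HFD minus ND and -0.13 for HLJDD minus ND. Values scaled by median ratio, which centre all genes near 0, are therefore given where they change a call of a member or a count of a list. Overlap of libraries is stated on values as deposited unless scaled values are named.

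Promoter windows of 300 bases, from 250 before to 50 after the transcript start, were read from RefSeq (GRCm38.p6) for 37 of the 40 members. Members with several starts have several windows, 46 in all. The GCGTG core of the AhR site occurred on either strand in 12 of these 46 windows (26.1%) and in 32.4% of the 32851 windows of all genes. The core of the antioxidant response element bound by NRF2, TGACNNNGC, occurred in 8 of 46 (17.4%) against 12.4% of all windows. No member window held both motifs. Direct repeats of AGTTCA or AGGTCA with a 3-base spacer, which PXR can bind, were in no member window and in 0 and 0.00609% of all windows. Exact repeats are so rare that their absence from 46 windows says nothing about the members. Sites of any of these factors outside the windows were not searched. The windows of Cyp1a1, the textbook AhR target, and of Gsta1 and Gsta2, neighbours that rose together below, are printed with GCGTG in capitals. The first lies at chr9:57697363-57697662 (plus strand), the second at chr9:78230419-78230718 (plus strand) and the third at chr9:78347096-78347395 (minus strand).
Cyp1a1: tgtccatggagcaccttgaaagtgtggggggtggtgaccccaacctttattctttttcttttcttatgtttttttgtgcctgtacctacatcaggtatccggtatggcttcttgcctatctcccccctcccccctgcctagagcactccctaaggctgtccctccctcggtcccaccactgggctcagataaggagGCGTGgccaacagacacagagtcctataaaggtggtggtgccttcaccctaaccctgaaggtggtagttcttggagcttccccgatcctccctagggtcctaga
Gsta1: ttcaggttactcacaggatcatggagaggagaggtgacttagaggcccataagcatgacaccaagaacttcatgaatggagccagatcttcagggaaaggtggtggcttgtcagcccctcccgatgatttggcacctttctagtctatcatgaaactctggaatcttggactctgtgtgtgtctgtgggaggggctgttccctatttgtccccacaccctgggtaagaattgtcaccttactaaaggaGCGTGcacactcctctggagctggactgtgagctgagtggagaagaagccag
Gsta2: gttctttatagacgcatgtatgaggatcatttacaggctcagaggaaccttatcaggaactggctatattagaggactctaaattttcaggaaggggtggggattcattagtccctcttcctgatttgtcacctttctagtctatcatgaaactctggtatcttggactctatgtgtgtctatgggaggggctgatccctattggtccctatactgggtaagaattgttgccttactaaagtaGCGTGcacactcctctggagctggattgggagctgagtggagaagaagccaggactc
GCGTG starts at base 197 of the Cyp1a1 window, at base 249 of the Gsta1 window and at base 244 of the Gsta2 window. In a global alignment with gaps, the Gsta1 and Gsta2 windows were identical at 238 of 300 bases (79.3%).

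The comparison of HFD with ND asks which of these genes differed between the 2 regimens. In HFD the deacetylase gene Aadac, the epoxide hydrolase gene Ephx2, the glutathione transferase genes Gsta1, Gsta2 and Gstk1, Cyp2d26, Cyp2j6, Ugt2a3 and the receptor gene Nr1i3 rose. The efflux pump gene Abcg2 and Cyp2c55 fell. That is 9 of 39 members called higher, where 5.06% of all genes tested were, and 2 called lower, where 11.5% were. The 9 include Gsta2, which passed the filter only through HFD and HLJDD libraries. The median log2 difference was 0.35 over the 39 members and -0.20 over all genes. On scaled values 12 members were called higher (11.6% of all genes), the added ones being Ephx1, Nr1i2 and Por, and 2 lower (11.4%). Calls of Cyp2c55, Abcg2, Aadac, Ephx2, Gsta1 and Nr1i3 held under all 17 alternatives run, the scaled values among them. The count of members called higher was 4 without ND replicate 1, 5 without ND replicate 2, 5 without HFD replicate 3, and 17 when HFD replicate 1 and HLJDD replicate 2 were left out.

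**Figure D1:**
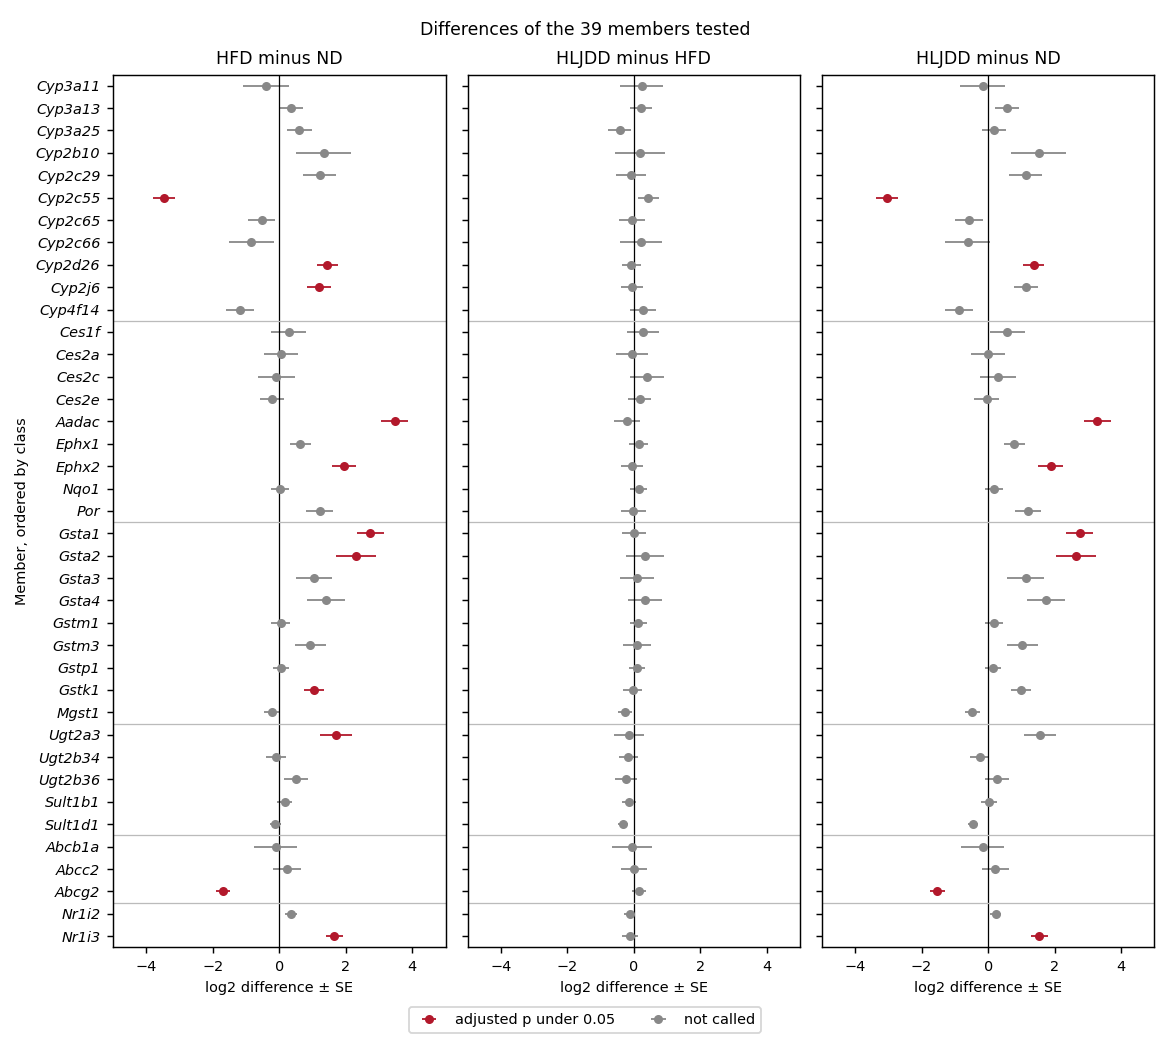
Log2 difference (x axis) with its SE for the 39 members tested (y axis, ordered by class) in HFD minus ND, HLJDD minus HFD and HLJDD minus ND, with members at an adjusted p under 0.05 in red. The left and right panels hold 11 and 8 called members, the middle panel holds 0, and its points lie between -0.42 and 0.44.

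Among the receptors, Nr1i3, which encodes CAR (mm10 chromosome 1, 171213970 to 171220701), stood at 5.41, 9.20 and 14.0 FPKM in ND replicates 1 to 3, 27.8, 27.4, 30.5 and 35.6 FPKM in HFD replicates 1 to 4 and 30.3, 21.1, 26.2 and 36.5 FPKM in HLJDD replicates 1 to 4. Every HFD and HLJDD library lay above every ND library. The log2 difference of Nr1i3 was 1.65 (SE 0.26, adjusted p = 0.00167) for HFD minus ND and 1.54 (SE 0.26, adjusted p = 0.00293) for HLJDD minus ND. Nr1i2, which encodes PXR (chromosome 16, 38248323 to 38294824), stood at 33.0, 37.2 and 36.0 FPKM in ND, 42.7, 37.3, 48.2 and 54.3 FPKM in HFD and 43.8, 33.1, 40.6 and 50.9 FPKM in HLJDD. HFD lay above ND by a narrow gap, and HLJDD overlapped both groups. The Nr1i2 difference for HFD minus ND was not called as deposited, 0.35 (SE 0.17, adjusted p = 0.152), and was called on scaled values (0.60, SE 0.17, adjusted p = 0.0309).

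Of the 11 P450 genes tested, 2 rose in HFD, 1 fell and 8 were not called. Cyp2c55, an intestinal P450 that oxidises arachidonic acid (chromosome 19, 39007019 to 39042693), was at 72.8, 73.6 and 85.6 FPKM in ND, 3.11, 4.63, 8.67 and 9.90 FPKM in HFD and 10.5, 5.90, 13.8 and 5.99 FPKM in HLJDD. The ND libraries lay close together and far above all 8 others. Its group means were 77.3 ± 7.18 FPKM (SD, n = 3), 6.58 ± 3.23 FPKM (n = 4) and 9.05 ± 3.81 FPKM (n = 4). This was the lowest log2 difference of any member, -3.47 (SE 0.34, adjusted p = 0.000150) for HFD minus ND and -3.04 (SE 0.34, adjusted p = 0.000378) for HLJDD minus ND. Only 0.514% of the 50-base stretches of the Cyp2c55 transcripts recur in another gene. Cyp2c65 and Cyp2c66, its neighbours on chromosome 19, gave -0.53 (SE 0.41, adjusted p = 0.353) and -0.84 (SE 0.68, adjusted p = 0.372) for HFD minus ND. These 2 genes share 20.2% and 19.5% of their 50-base stretches with each other, so their values are uncertain.

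Cyp2d26, a liver and gut member of the Cyp2d family (chromosome 15, 82790101 to 82794294), was at 79.9, 101 and 133 FPKM in ND, 215, 236, 324 and 378 FPKM in HFD and 335, 154, 257 and 383 FPKM in HLJDD. All 8 HFD and HLJDD libraries lay above the 3 ND libraries. Its log2 difference was 1.44 (SE 0.31, adjusted p = 0.00900) for HFD minus ND, with an adjusted p of 0.0604 without ND replicate 1. For HLJDD minus ND it was 1.37 (SE 0.31, adjusted p = 0.0142), with 0.0897 without ND replicate 1 and 0.0649 without ND replicate 2. Cyp2j6, of the Cyp2j family (chromosome 4, 96516138 to 96553661), was at 16.9, 20.1 and 23.3 FPKM in ND, 37.5, 39.2, 52.4 and 62.8 FPKM in HFD and 59.4, 19.2, 57.5 and 64.3 FPKM in HLJDD. HFD did not overlap ND, while HLJDD replicate 2 fell within the ND range. Cyp2j6 gave 1.19 (SE 0.36, adjusted p = 0.0399) for HFD minus ND, a call that 8 of 17 alternatives kept. Its adjusted p was 0.156, 0.122 and 0.0656 without ND replicates 1, 2 and 3, 0.0506, 0.0811 and 0.0740 without HFD replicates 1, 3 and 4, and 0.0505 with a replicate block. For HLJDD minus ND it gave 1.15 (SE 0.36, adjusted p = 0.0562), with an adjusted p of 0.00131 without HLJDD replicate 2.

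The P450 genes most used as readouts of PXR and CAR were not called in either comparison with ND with all libraries in the fit. Cyp3a11, the main drug-oxidising P450 of mouse gut and liver and a PXR target, averaged 262 ± 157, 240.0 ± 198 and 226 ± 94.8 FPKM in ND, HFD and HLJDD. Its HFD libraries spanned 73.0 to 471 FPKM. Cyp2b10, the classic CAR target, averaged 40.9 ± 32.1, 103 ± 73.1 and 115 ± 61.4 FPKM. The log2 difference of HFD minus ND was -0.41 (SE 0.69, adjusted p = 0.669) for Cyp3a11 and 1.33 (SE 0.82, adjusted p = 0.247) for Cyp2b10. With HFD replicate 1 and HLJDD replicate 2 left out, each the lowest of its group for Cyp2b10, this gene passed in both comparisons. Its adjusted p was then 0.0464 for HFD minus ND and 0.0329 for HLJDD minus ND. Only 1 of 17 alternatives called Cyp2b10 in HFD against ND, and only 2 of 17 in HLJDD against ND. Leaving out the same libraries also added calls of Cyp2c29, Cyp3a25, Cyp4f14, Ephx1, Gsta3, Gstm3, Por and Ugt2b36 in HFD against ND. Cyp3a13 and Cyp3a25, further Cyp3a enzymes, gave 0.35 (SE 0.35, adjusted p = 0.469) and 0.60 (SE 0.37, adjusted p = 0.245). Cyp2c29 was the lowest of the tested P450 genes, with means of 0.361, 2.61 and 2.18 FPKM. Its ND libraries held 1, 22 and 48 reads, and HLJDD minus ND had an adjusted p of 0.0478 without HLJDD replicate 2. Cyp4f14, a hydroxylase of fatty acids and leukotrienes, averaged 343 ± 36.4 FPKM in ND and 158 ± 51.1 FPKM in HFD. Its HFD range lay below ND, with a log2 difference of -1.18 (SE 0.42, adjusted p = 0.0705). With only the ND and HFD libraries in the fit, the adjusted p of Cyp4f14 was 0.0216.

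Cyp1a1, chosen for detail after its values were seen (chromosome 9, 57687928 to 57703824), was the only member below the filter. It held 0.387, 2.00 and 4.11 FPKM in ND, from 38, 204 and 426 reads. In HFD it held 0.259, 0.0425, 0.0203 and 0 FPKM (23, 4, 2 and 0 reads), and in HLJDD 0.203, 0.0596, 0.113 and 0.311 FPKM (21, 5, 12 and 32 reads). All 8 HFD and HLJDD libraries lay below the 3 ND libraries, which themselves differed widely. On scaled values HFD replicate 1 of Cyp1a1 (0.345 FPKM) exceeded ND replicate 1 (0.332 FPKM). In a limma fit of all 24294 symbols, HFD minus ND was -1.36 (SE 0.34, adjusted p = 0.0473) and HLJDD minus ND was -1.25 (SE 0.34, adjusted p = 0.0715).

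Among the 9 esterases, hydrolases and redox partners, Aadac and Ephx2 rose in HFD, none fell and 7 were not called. Aadac encodes arylacetamide deacetylase, a hydrolase of the endoplasmic reticulum (chromosome 3, 60025717 to 60040160). It was at 9.56, 25.3 and 49.1 FPKM in ND, 220.3, 218, 297 and 353 FPKM in HFD and 256, 167, 232 and 292 FPKM in HLJDD. Every HFD and HLJDD library exceeded the highest ND library several times over, and the ratio of the highest to the lowest library was larger in ND than in the other groups. Aadac gave the highest difference of any member, 3.47 (SE 0.41, adjusted p = 0.000437) for HFD minus ND and 3.28 (SE 0.41, adjusted p = 0.000649) for HLJDD minus ND. No 50-base stretch of Aadac recurs in another gene.

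Ephx2 encodes the soluble epoxide hydrolase, which opens epoxides of fatty acids (chromosome 14, 66084374 to 66124500). It was at 48.3, 85.9 and 148 FPKM in ND, 333, 223, 364 and 435 FPKM in HFD and 377, 209, 278 and 462 FPKM in HLJDD, with no ND library reaching the others. The differences were 1.94 (SE 0.37, adjusted p = 0.00486) and 1.88 (SE 0.37, adjusted p = 0.00672) for HFD and HLJDD minus ND. By level, Ephx2 ranked 14th of the 40 members in ND, 3rd in HFD and 2nd in HLJDD. Ephx1, the microsomal epoxide hydrolase, averaged only 4.62 ± 1.11 FPKM in ND and 7.89 ± 2.57 FPKM in HFD. Ephx1 gave 0.63 (SE 0.32, adjusted p = 0.163), and passed on scaled values with an adjusted p of 0.0344. Por, the reductase that feeds electrons to microsomal P450 enzymes, averaged 42.2 ± 11.1, 106 ± 50.1 and 104 ± 43.8 FPKM. Its difference of HFD minus ND was 1.21 (SE 0.40, adjusted p = 0.0585), with 0.0185 on scaled values and 0.0445 without HFD replicate 2. Without HLJDD replicate 2, HLJDD minus ND passed for Por (0.0228) and Ephx1 (0.0192).

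The carboxylesterase genes Ces1f, Ces2a, Ces2c and Ces2e, which cleave ester and amide drugs, were not called in HFD against ND, with log2 differences from -0.22 to 0.28 and adjusted p from 0.671 to 0.954. Ces2e had the second highest mean of all members in ND, 435 ± 49.5 FPKM, and stood at 395 ± 157 FPKM in HFD. Ces2c shares 36.1% of its 50-base stretches with other genes, mostly the pseudogene Ces2d-ps, and Ces2a shares 17.3%, so their values are uncertain. Nqo1, a quinone reductase and common NRF2 readout, averaged 10.1 ± 0.669, 10.8 ± 3.90 and 12.0 ± 3.78 FPKM, with 0.033 (SE 0.27, adjusted p = 0.934) for HFD minus ND.

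Of the 9 glutathione transferase genes, 3 rose in HFD, none fell and 6 were not called. Their median log2 difference of 1.03 was above that of each other enzyme class, which ranged from 0.16 to 0.35, a description without a test. Gsta1, an alpha class enzyme that detoxifies lipid peroxides (chromosome 9, 78230656 to 78242684), was at 21.9, 27.1 and 31.5 FPKM in ND, 151, 109, 225 and 306 FPKM in HFD and 215, 153, 102 and 341 FPKM in HLJDD. The ND libraries were tightly grouped and all lay far below the rest. Gsta1 gave 2.74 (SE 0.40, adjusted p = 0.00118) for HFD minus ND and 2.75 (SE 0.40, adjusted p = 0.00147) for HLJDD minus ND. Gsta2 (chromosome 9, 78331018 to 78355788), its close relative, was at 0.615, 0.349 and 0.318 FPKM in ND, 3.56, 2.10, 9.29 and 15.6 FPKM in HFD and 9.38, 3.86, 3.89 and 24.2 FPKM in HLJDD. ND held 12 to 22 reads of it, and the highest libraries were HFD replicate 4 and HLJDD replicate 4. Gsta2 gave 2.30 (SE 0.61, adjusted p = 0.0252) for HFD minus ND, a call that 11 of 17 alternatives kept, and 2.64 (SE 0.61, adjusted p = 0.0162) for HLJDD minus ND, which 14 kept. The adjusted p of Gsta2 for HFD minus ND was 0.0814, 0.0924 and 0.0658 without ND replicates 1, 2 and 3 and 0.0596 without HFD replicate 3. For HLJDD minus ND it was 0.0628 and 0.0707 without ND replicates 1 and 2.

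The 2 genes whose promoter windows are printed above cannot be fully separated, since 90.5% of the 50-base stretches of Gsta1 recur in other genes (75.7% in Gm3776) and 49.8% of those of Gsta2. Gsta4, which carries the 4-hydroxynonenal activity of the alpha class, shares none, and averaged 15.1 ± 3.63, 51.4 ± 37.1 and 59.5 ± 35.2 FPKM. Its difference was 1.41 (SE 0.57, adjusted p = 0.0983) for HFD minus ND and 1.74 (SE 0.57, adjusted p = 0.0662) for HLJDD minus ND, where scaled values gave an adjusted p of 0.0393. The adjusted p of Gsta4 was 0.0352 for HFD minus ND without HFD replicate 2 and 0.0468 for HLJDD minus ND without HLJDD replicate 2. Gsta3 gave 1.04 (SE 0.55, adjusted p = 0.185) for HFD minus ND. Gstk1, the kappa class enzyme of mitochondria and peroxisomes (chromosome 6, 42245935 to 42250447), was at 30.2, 38.2 and 44.0 FPKM in ND, 70.3, 56.8, 87.4 and 98.9 FPKM in HFD and 92.0, 39.4, 80.3 and 107 FPKM in HLJDD. HFD lay wholly above ND, and HLJDD replicate 2 fell inside the ND range. Gstk1 gave 1.03 (SE 0.30, adjusted p = 0.0386) for HFD minus ND, which 9 of 17 alternatives kept, and 1.00 (SE 0.30, adjusted p = 0.0533) for HLJDD minus ND. The adjusted p of Gstk1 for HFD minus ND was 0.162, 0.114 and 0.0567 without ND replicates 1, 2 and 3 and 0.0622, 0.0820 and 0.0726 without HFD replicates 1, 3 and 4. For HLJDD minus ND it was 0.00433 without HLJDD replicate 2. Gstm1, Gstp1 and the membrane-bound Mgst1 differed by -0.22 to 0.048 in HFD minus ND and Gstm3 by 0.93, none of them called. Gstp1, Gstm3 and Gstm1 share 33.7%, 28.8% and 18.9% of their 50-base stretches with other genes, so their values are uncertain. Mgst1 was the most abundant member in ND (449 ± 36.4 FPKM) and in HFD (397 ± 105 FPKM).

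**Figure D2:**
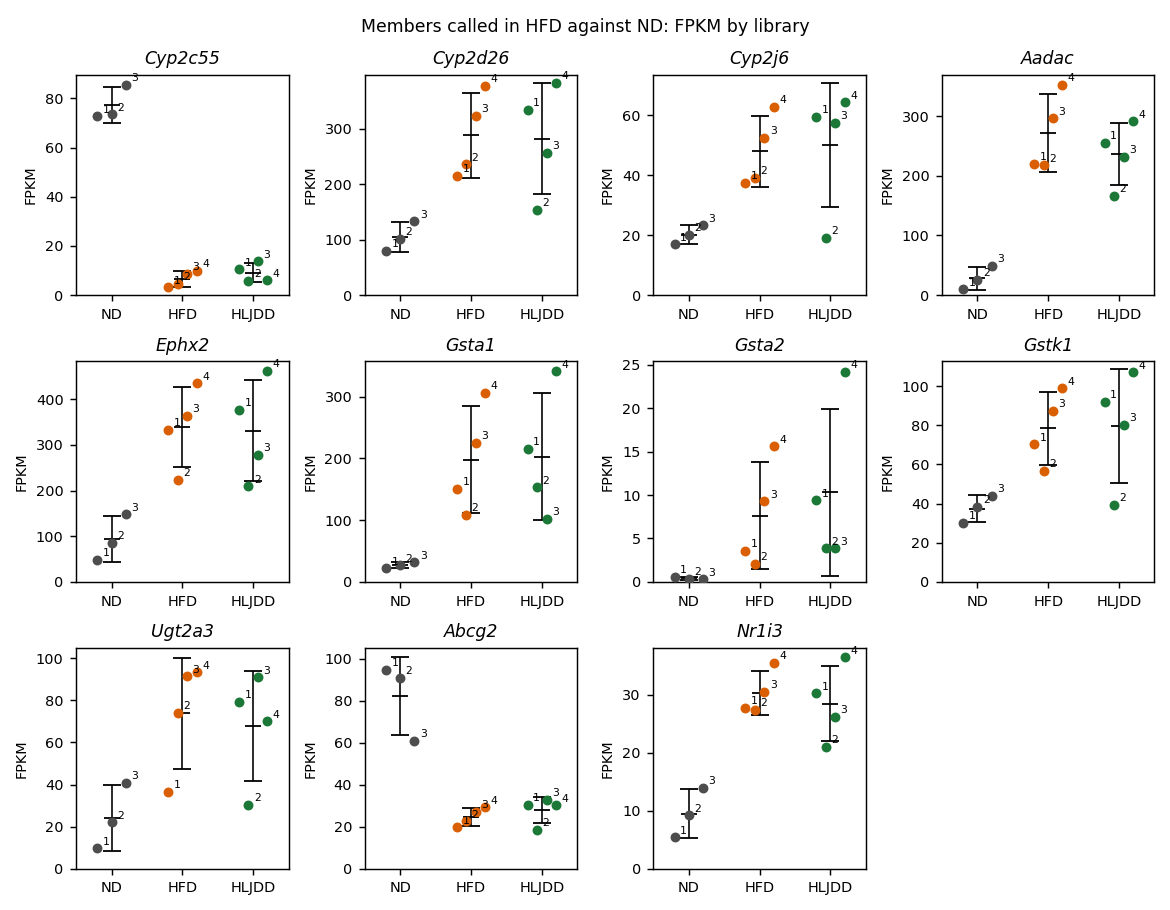
FPKM (y axis, from 0) of the 11 members called in HFD against ND, by group (x axis), with 1 numbered point per library and bars for the mean ± SD. Cyp2c55 and Abcg2 are high in ND alone, and in the other 9 panels ND has the lowest mean, as for Gsta1, where its points span 21.9 to 31.5 FPKM.

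Of the 5 conjugating enzymes that attach glucuronic acid or sulfate, Ugt2a3 rose in HFD and 4 were not called. Ugt2a3 (chromosome 5, 87324972 to 87337195), a glucuronosyltransferase, was at 9.72, 22.0 and 40.8 FPKM in ND, 36.7, 74.1, 91.4 and 93.4 FPKM in HFD and 79.3, 30.5, 91.0 and 70.1 FPKM in HLJDD. ND replicate 3 exceeded HFD replicate 1 and HLJDD replicate 2, so the ranges overlapped. Ugt2a3 gave 1.70 (SE 0.48, adjusted p = 0.0325) for HFD minus ND, a call that 10 of 17 alternatives kept, and 1.55 (SE 0.48, adjusted p = 0.0554) for HLJDD minus ND. The adjusted p of Ugt2a3 for HFD minus ND was 0.162 and 0.10 without ND replicates 1 and 2 and 0.0553, 0.0735 and 0.0603 without HFD replicates 2, 3 and 4. For HLJDD minus ND it was 0.0251 without ND replicate 3 and 0.0221 without HLJDD replicate 2. Ugt2b34 averaged 301 ± 11, 288 ± 72.1 and 265 ± 88.8 FPKM, and Ugt2b36 6.56 ± 0.262, 10.3 ± 4.12 and 8.75 ± 3.60 FPKM. Sulfotransferase Sult1b1 averaged 208 ± 34.1, 233 ± 35.0 and 216 ± 54.7 FPKM. Sult1d1 averaged 242 ± 31.8, 222 ± 28.8 and 176 ± 22.4 FPKM, with -0.46 (SE 0.16, adjusted p = 0.0869) for HLJDD minus ND.

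Of the 3 efflux pumps, 1 fell in HFD and 2 were not called. Abcg2, the breast cancer resistance protein that returns urate, porphyrins and many drugs to the lumen (chromosome 6, 58584523 to 58695676), was at 94.8, 91.0 and 60.9 FPKM in ND, 19.8, 22.5, 27.0 and 29.3 FPKM in HFD and 30.3, 18.6, 32.7 and 30.2 FPKM in HLJDD. Each of the 8 HFD and HLJDD libraries lay below the lowest ND library. The difference was -1.69 (SE 0.22, adjusted p = 0.000709) for HFD minus ND and -1.53 (SE 0.22, adjusted p = 0.00149) for HLJDD minus ND. Abcb1a, the drug pump P-glycoprotein (chromosome 5, 8660077 to 8748575), was at 97.5, 75.0 and 40.1 FPKM in ND, 20.6, 45.7, 109 and 137 FPKM in HFD and 83.0, 21.0, 87.6 and 79.3 FPKM in HLJDD. The 3 groups overlapped throughout, with HFD replicate 1 and HLJDD replicate 2 lowest of all, and Abcb1a gave -0.11 (SE 0.64, adjusted p = 0.908) for HFD minus ND. It shares 17.6% of its 50-base stretches with other genes, mostly Abcb1b. Abcc2, which exports glutathione and glucuronide conjugates (chromosome 19, 43782192 to 43840740), was at 32.4, 31.7 and 26.1 FPKM in ND, 18.9, 25.7, 48.6 and 63.6 FPKM in HFD and 45.6, 16.6, 37.6 and 52.1 FPKM in HLJDD. The ND libraries lay inside the ranges of both other groups, and Abcc2 gave 0.22 (SE 0.42, adjusted p = 0.703) for HFD minus ND. Uncalled differences of HFD minus ND for Abcb1a, Ces2c, Ces2e, Mgst1, Ugt2b34 and Sult1d1 were below 0 as deposited and above 0 after scaling.

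In HLJDD against ND, Aadac, Gsta1, Gsta2, Ephx2, Nr1i3 and Cyp2d26 rose, and Cyp2c55 and Abcg2 fell. That is 6 of 39 members called higher, where 4.10% of all genes tested were, and 2 called lower, where 7.79% were. The 6 again include Gsta2, which passed the filter only through HFD and HLJDD libraries. The median log2 difference was 0.26 over the members and -0.13 over all genes. All 8 were also among the 11 called in HFD against ND, a comparison that uses the same ND libraries. On scaled values 12 members were called higher (8.62% of all genes), the added ones being Cyp2j6, Ephx1, Gsta4, Gstk1, Por and Ugt2a3, and 2 lower (9.18%). Without HLJDD replicate 2 the count called higher as deposited was 13, and without both libraries of high mitochondrial share it was 16.

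The comparison of HLJDD with HFD asks which members differed between the group named for the decoction and HFD. No member was called in either direction, and 0% of all genes tested were called higher and 0% lower. At an unadjusted p under 0.05 there were 186 of 10764 genes and 1 of 39 members, Sult1d1, and on scaled values 567 genes and 2 members, Sult1d1 and Mgst1. Limma-voom on the recovered reads also called 0 genes. Sult1d1, a sulfotransferase of catechols, was at 214, 256, 232 and 187 FPKM in HFD and 188, 148, 199.5 and 169 FPKM in HLJDD, so the 2 groups overlapped. Its log2 difference was -0.33 (SE 0.15, adjusted p = 0.999). Over the 39 members the differences ran from -0.42 in Cyp3a25 to 0.44 in Cyp2c55, with a median of -0.0054 and SEs from 0.15 to 0.76. Aadac gave -0.20 (SE 0.38), Gsta1 0.0043 (SE 0.37) and Abcg2 0.16 (SE 0.21). No member had HLJDD and HFD libraries that did not overlap, in either direction. Among all genes, 0.483% lay wholly higher and 0.548% wholly lower in HLJDD as deposited, and 1.89% and 1.71% on scaled values. For Cyp1a1 the fit of all symbols gave 0.12 (SE 0.31, adjusted p = 1.00).

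**Figure D3:**
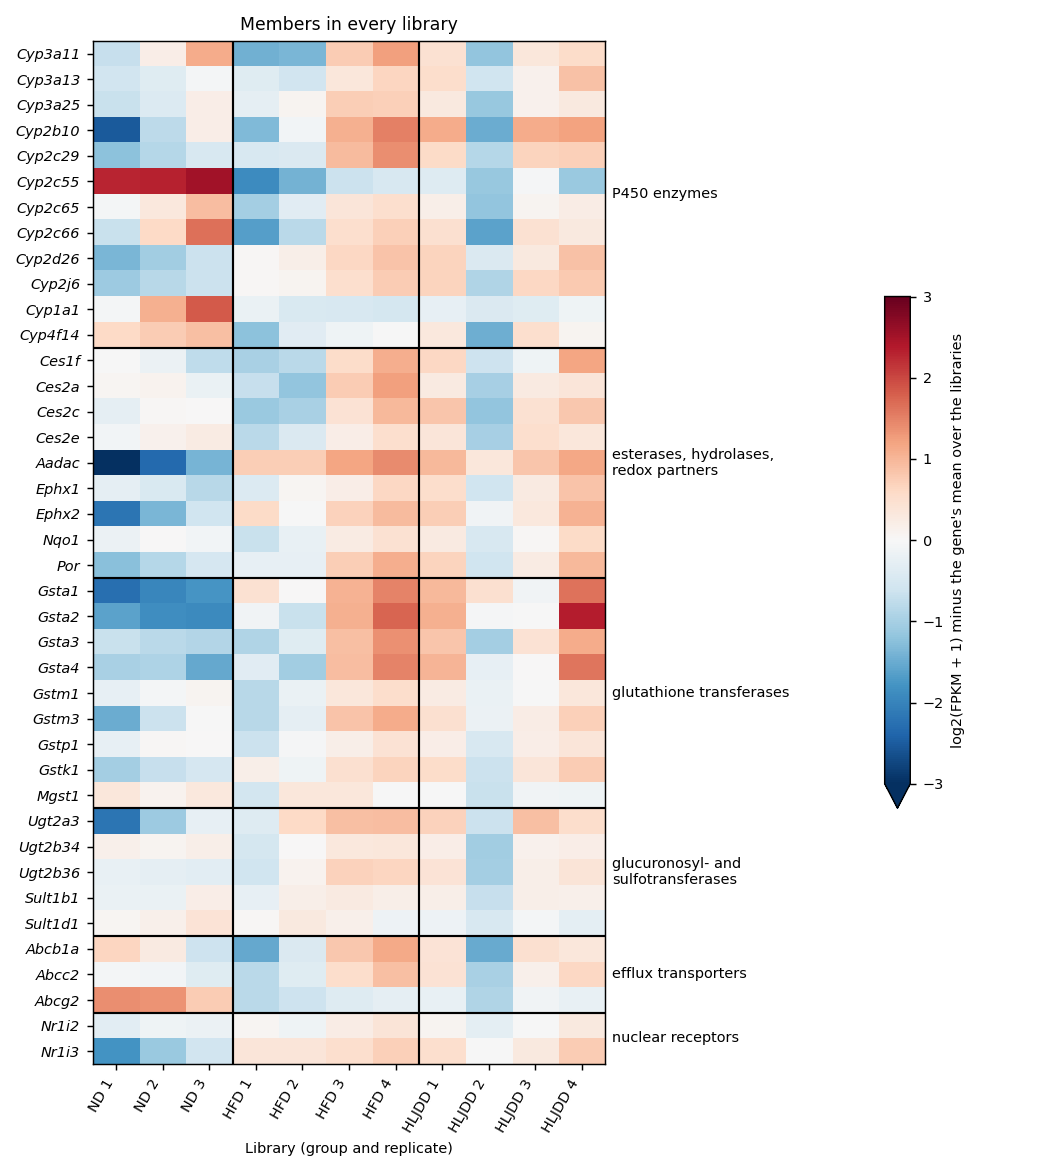
Heat map of log2(FPKM + 1) minus the gene's mean over the 11 libraries (colour, with the pointed end of the bar for values past its range) for the 40 members (rows, by class) in every library (columns). Cyp2c55 and Abcg2 are red in the 3 ND libraries and Aadac, Ephx2 and Gsta1 blue, while HLJDD replicate 2 is the palest or bluest of its group in most rows.

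The spread between libraries of a group is given as a description, without a test. The median SD of log2(FPKM + 1) over the 39 members was 0.257 in ND, 0.602 in HFD and 0.673 in HLJDD, and over all genes tested it was 0.127, 0.231 and 0.253. On scaled values the members' medians were 0.299, 0.495 and 0.464, and those of all genes 0.130, 0.194 and 0.160. Within HFD, replicate 4 was the highest library for 34 of 39 members (87.2%) and for 39.0% of all genes, with 34 members and 34.7% on scaled values. In HLJDD, replicate 2 was lowest for 38 members (97.4%) and for 77.9% of all genes, and on scaled values for 25 (64.1%) and 37.6%. HLJDD replicate 4 was highest for 33 members (84.6%) on scaled values and for 32.0% of all genes. Cyp3a11, for example, was at 73.0, 77.0, 339.6 and 471 FPKM in HFD, and Ces2a at 116, 81.9, 318 and 436 FPKM. Gsta4 was at 26.8, 16.1, 65.6 and 97.0 FPKM in HFD and 70.4, 28.7, 34.3 and 105 FPKM in HLJDD. The smallest SD of any member in HFD was 0.168, for Nr1i3, as deposited and 0.0668, for Sult1b1, on scaled values.

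**Figure D4:**
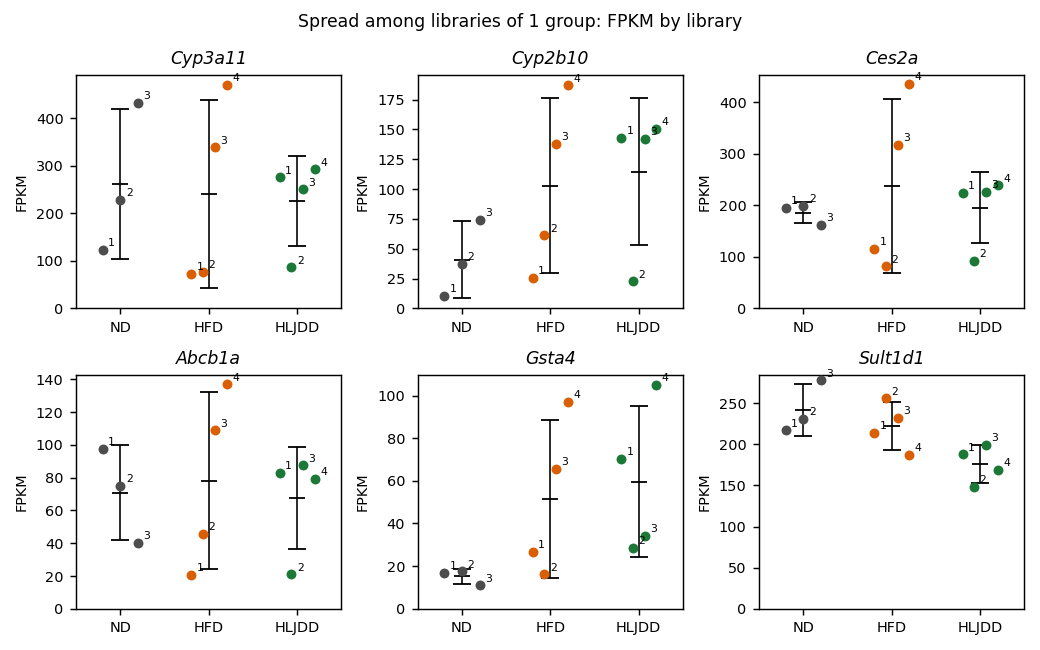
FPKM (y axis, from 0) of 6 members by group (x axis), with 1 numbered point per library and bars for the mean ± SD. In HFD replicates 3 and 4 lie above replicates 1 and 2 for Cyp3a11, Cyp2b10, Ces2a, Abcb1a and Gsta4, and in HLJDD replicate 2 is the lowest in all 6 panels.

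Summed over the 40 members, FPKM was 3615, 4066 and 4877 in ND, 3364, 4048, 6212 and 7158 in HFD and 5844, 2749, 5266 and 6352 in HLJDD. Within HFD the 12 markers of mature enterocytes ran in the same order, with sums of 4989.9, 6293, 7499 and 8291, and mitochondrial shares in the reverse order, 32.4%, 19.3%, 16.0% and 12.7%. The 8 macrophage markers, of which Lyz2 was highest, also ran in reverse in HFD, 86.5, 76.5, 37.6 and 19.3, while the 8 crypt progenitor markers followed the members, 123, 295, 390.2 and 409. All these sums are as deposited, and marker sums were not scaled. On scaled values the members summed to 4475, 3876, 6203 and 7356 in HFD, no longer in the reverse order of the mitochondrial shares. Scaled sums in HLJDD were 5435, 3598, 4573 and 6433. HFD replicate 1 was lowest of its group for 69.0% of all genes as deposited and 30.4% on scaled values. In HLJDD replicate 2, the lowest of its group for the members, the mature enterocyte sum was 4198 against 7736 to 8045 in the other 3. The macrophage and crypt progenitor sums were also lowest there, 66.6, 19.4, 89.9 and 51.6 and 430.2, 191, 487 and 361 over HLJDD replicates 1 to 4. Other lists were highest in that library. Over HLJDD replicates 1 to 4, Paneth cell markers summed to 117, 403, 167 and 86.8 and goblet cell markers to 3209, 3889, 3717 and 3019. Adipocyte markers summed to 195, 301, 230.5 and 165. In bulk tissue, fewer cells of a type and less RNA per cell cannot be told apart, and the part of these measures in the spread of the members was not tested.

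**Figure D5:**
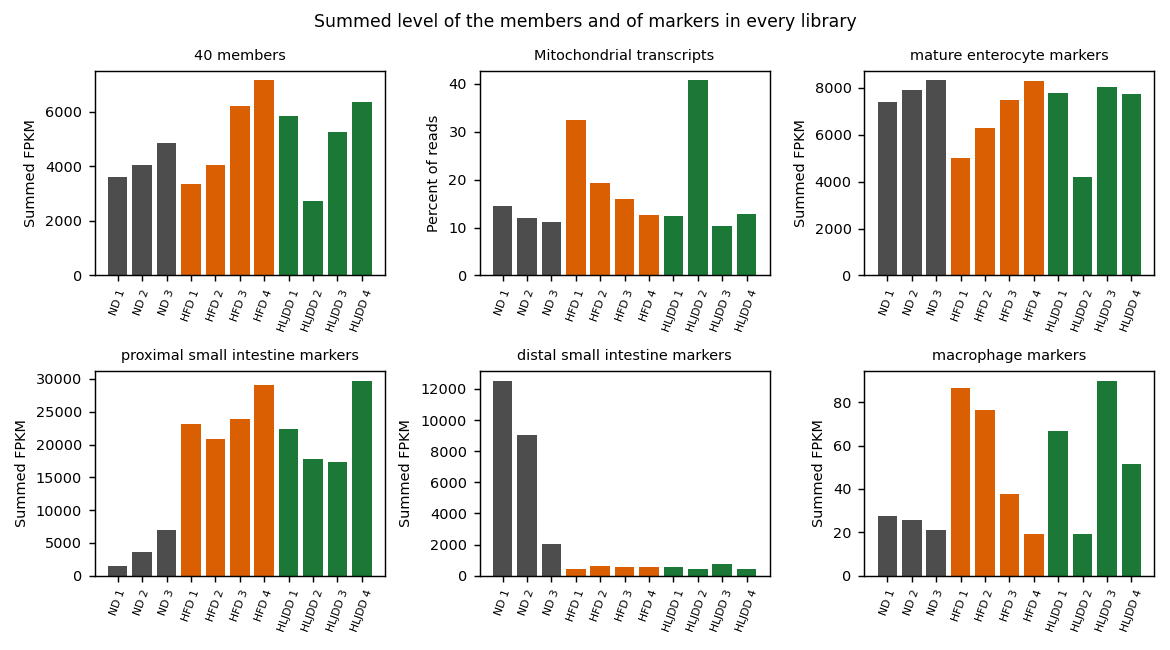
Bars (from 0) of the summed FPKM of the 40 members and of 4 marker lists, and of the percent of reads from mitochondrial transcripts (y axes), in each of the 11 libraries (x axes). Proximal markers reach at most 7037 in ND and at least 17396 elsewhere, distal markers at least 2049 in ND and at most 737 elsewhere, and mitochondrial reads peak in HFD replicate 1 and HLJDD replicate 2.

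Markers of gut position moved with both comparisons against ND. The 14 markers of distal small intestine summed to 12531, 9071 and 2049 FPKM in ND and to 434 to 653 in HFD and 411 to 737 in HLJDD, and 10 of the 13 tested fell in each comparison. Fabp6, the ileal bile acid carrier, was at 9821, 6702 and 397 FPKM in ND and at most 4.31 FPKM elsewhere, and Slc10a2, the ileal bile acid importer, at 256, 141 and 7.70 FPKM in ND and at most 0.551 FPKM elsewhere. The 12 markers of proximal small intestine summed to 1523, 3633 and 7037 FPKM in ND, 20877 to 29105 in HFD and 17396 to 29733 in HLJDD. Of these, 7 of the 10 tested rose and 1 fell in each comparison. Fabp1, which carries fatty acids in proximal enterocytes, was at 476, 1940.2 and 4390.3 FPKM in ND and 11584, 11349, 12219 and 14642 FPKM in HFD, and Gata4, a proximal transcription factor, at 9.75, 15.5 and 24.7 and 25.9, 26.9, 33.4 and 35.7 FPKM. Of the 9 members called higher in HFD, 8 ranked the ND libraries in the order of the proximal sums, and Gsta2 ranked them in the order of the distal sums. Of the 2 called lower, Abcg2 ranked them in the order of the distal sums and Cyp2c55 in that of the proximal sums. Over all 39 members, ND replicate 1 was lowest for 26 (66.7%) and ND replicate 3 highest for 24 (61.5%). Over all genes tested these shares were 39.2% and 32.0%, and the share in either order was not counted. The part of gut position in the calls of the members was not tested, and since ND and the other groups do not overlap in either sum, position and group cannot be told apart.

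Markers of other cell types were summed in the same way, and none was at 0 in every library. Hepatocyte markers summed to 6.01 to 7.52 FPKM in ND, 6.86 to 13.1 in HFD and 6.29 to 8.43 in HLJDD, and 6 of 11, Fga, Fgb and Ahsg among them, were under 1 FPKM in every library. Alb was at 3.06 FPKM in HFD replicate 1 and at most 0.381 FPKM elsewhere. Pancreatic acinar markers summed to 3.77 to 7.71 FPKM over all libraries, with 9 of 10 under 1 FPKM throughout. Goblet cell markers summed to 1237 to 2212 FPKM in ND, 4114 to 4646 in HFD and 3019 to 3889 in HLJDD, and 3 of 8 rose in each comparison with ND, Zg16 being the highest. B and plasma cell markers summed to 38.2 to 64.7, 126 to 286 and 116 to 305 FPKM, led by Jchain. Adipocyte markers, led by Fabp4, summed to 75.1 to 89.1, 91.8 to 144 and 165 to 301 FPKM, and 5 of 8 rose in HLJDD against ND. Large intestine markers summed to 52.1 to 57.4, 37.8 to 63.7 and 38.1 to 66.5 FPKM in ND, HFD and HLJDD. Paneth cell markers summed to 210.3 to 246, 108 to 379 and 86.8 to 403 FPKM in ND, HFD and HLJDD, and crypt progenitor markers to 338 to 391, 123 to 409 and 191 to 487 FPKM. T and NK lymphocyte markers summed to 16.4 to 21.9, 14.8 to 21.6 and 6.27 to 17.4 FPKM in ND, HFD and HLJDD, and smooth muscle markers to 473 to 668, 175 to 649 and 194 to 488 FPKM. Over all genes tested, 5.06% rose in HFD against ND and 4.10% in HLJDD against ND. The part of all these marker lists in the results of the members was not tested.

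Other genes of the same pathways were counted from lists. Among other P450 and reductase genes, 2 of 16 tested rose and 1 fell in HFD against ND. Cyb5r3, the cytochrome b5 reductase, averaged 46.5 ± 16.4 FPKM in ND and 130.5 ± 34.3 FPKM in HFD, a log2 difference of 1.49 (SE 0.31, adjusted p = 0.00782). Cyp4a10, a fatty acid hydroxylase and PPARα target, rose by 2.36 (SE 0.72, adjusted p = 0.0432), and Cyp2u1 gave -0.98 (SE 0.30, adjusted p = 0.0464). Among other esterases and oxidoreductases 6 of 33 rose and none fell. These included the carbonyl reductase Cbr1 (1.23, from 154 to 352 FPKM), the carboxylesterase Ces2g (2.14), the flavin monooxygenase Fmo1 (0.91) and Akr1b10 (0.62). Among other conjugating enzymes 8 of 28 rose and 1 fell, the rises with the smallest p being the glutathione transferases Gstm6 (2.19), Gstt1 (1.53) and Mgst3 (0.82) and the methyltransferase Tpmt (0.56). Medians of these 3 lists were 0.33, 0.30 and 0.42. On scaled values 4 of 16, 13 of 33 and 12 of 28 rose, where 11.6% of all genes did (5.06% as deposited). The share of all genes that fell was 11.5% as deposited. With 1 library left out the rises ran from 0 to 3, 1 to 8 and 3 to 7, and were fewest without ND replicate 1. Without ND replicate 1, Cyb5r3, Cyp4a10, Cyp2u1, Akr1b10, Ces2g, Fmo1 and Tpmt were not called, with adjusted p of 0.0528 to 0.189. Without ND replicate 2 this held for Cyp4a10, Cyp2u1, Akr1b10, Ces2g and Fmo1 (0.0730 to 0.152), and without ND replicate 3 for Cyp2u1 (0.0642). Cyp4a10 and Cyp2u1 were also lost without HFD replicates 1, 3 or 4 (0.0675 to 0.0994), and Ces2g without HFD replicate 3 (0.0542).

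Of 14 other drug transporters, Abcc6 (1.23) and the organic cation exporter Slc47a1 (0.91) rose in HFD, and the prostaglandin transporter Slco2a1 (-1.31) and the ergothioneine transporter Slc22a4 (-0.95) fell. For comparison with this list and the next 3, 5.06% of all genes tested rose and 11.5% fell. Leaving members out, 1 of 5 AhR regulators and targets was called, the target Tiparp, which fell from 9.59 ± 0.273 to 5.79 ± 0.600 FPKM, a log2 difference of -0.65 (SE 0.13, adjusted p = 0.00601). Of 20 NRF2 regulators and targets, 2 rose and 3 fell. Gclm, a subunit of the enzyme that limits glutathione synthesis, gave 1.06 (SE 0.21, adjusted p = 0.00642), and Cbr1 was the other rise. Gsr, glutathione reductase, fell from 128 ± 14.8 to 24.0 ± 9.39 FPKM, a log2 difference of -2.47 (SE 0.38, adjusted p = 0.00161), and the NRF2 antagonist Bach1 (-1.07) and Srxn1 (-0.68) also fell. Of 9 PXR and CAR partners and targets, Gadd45b (0.66) rose and Hnf4a, a factor that sustains many of these genes, fell from 198 ± 5.32 to 119.6 ± 12.3 FPKM, a log2 difference of -0.73 (SE 0.14, adjusted p = 0.00600). Of the genes named here, calls lost when 1 library was left out were those of Gadd45b (adjusted p = 0.0918 and 0.0588 without ND replicates 1 and 3), Srxn1 (0.0614 without ND replicate 2), Slc22a4 and Slc47a1. Slc22a4 gave 0.0695, 0.0978 and 0.0693 without ND replicates 1, 2 and 3 and 0.0578 without HFD replicate 1. Slc47a1 gave 0.171 and 0.123 without ND replicates 1 and 2 and 0.0631, 0.0793 and 0.0748 without HFD replicates 1, 3 and 4. On scaled values 4 of 14 transporters rose, among them Slco2b1 (0.85, adjusted p = 0.00191, against 0.0509 as deposited), as did 1 of 5 AhR genes and 4 of 20 NRF2 genes. The scaled share of all genes was 11.6% for rises and 11.4% for falls.

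In HLJDD against ND the 4 enzyme and transporter lists held 1 rise and no fall of 16, 6 and 0 of 33, 6 and 1 of 28, and 2 and 2 of 14. The AhR, NRF2, and PXR and CAR lists held 0 rises and 1 fall of 5, 2 and 3 of 20, and 0 and 1 of 9. Over all genes 4.10% rose and 7.79% fell. On scaled values 2 of 16, 12 of 33, 14 of 28 and 3 of 14 rose, where 8.62% of all genes did. With 1 library left out the rises in these 4 lists ran from 0 to 5, 0 to 10, 1 to 11 and 1 to 3, and were fewest without ND replicate 1 and most without HLJDD replicate 2. The 2 NRF2 rises were Cbr1, with an adjusted p of 0.0997 and 0.0698 without ND replicates 1 and 2, and Gclm. The adjusted p of Gclm was 0.160, 0.117 and 0.0513 without ND replicates 1, 2 and 3 and 0.0881, 0.0501 and 0.0976 without HLJDD replicates 1, 3 and 4. Srxn1, 1 of the 3 NRF2 falls, gave 0.0735, 0.114 and 0.0689 without ND replicates 1, 2 and 3 and 0.0546 and 0.0578 without HLJDD replicates 1 and 4. Tiparp, the AhR target that fell, gave 0.0955 on scaled values, 0.156, 0.135 and 0.0807 without ND replicates 1, 2 and 3, and 0.0614 and 0.105 without HLJDD replicates 1 and 4. Hnf4a, the fall of the PXR and CAR list, gave 0.122, 0.140 and 0.0679 without ND replicates 1, 2 and 3 and 0.0685 and 0.0722 without HLJDD replicates 1 and 4. Among the genes named above, scaled values added calls of Slc47a1 (0.0248) and Gadd45b (0.0180) as rises and of Cyp2u1 (0.0397) as a fall. Gstm7, a mu class transferase, rose by 1.56, and the uptake transporter Slco2b1 by 0.86. Without ND replicates 1 and 2 the adjusted p of Gstm7 was 0.0927 and 0.0532. That of Slco2b1 was 0.0736, 0.0712 and 0.0625 without ND replicates 1, 2 and 3 and 0.0582 without HLJDD replicate 4. In HLJDD against HFD none of the genes in these 7 lists was called.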

How the data were processed

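The deposited values are FPKM, made by the authors, 1 per library for each of 24294 gene symbols. The submitters' processing notes name fastp, HISAT2, HTSeq, R 3.2.0 and mm10, without roles. The annotation behind the counts is not given in the sources used here, nor is any use of strand. Single files and the series table held equal values (0 differences). TRIzol was used for RNA extraction and a VAHTS Universal V6 kit for the libraries, per the labels' protocols. Libraries were grouped by title.

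Reads were recovered by seeking, for each gene, the smallest count that made its reads whole in every library, within 0.01 reads. Such a count was found for 100.00% of the 24294 symbols, with totals of 30100481 to 37940645 per library. Wholeness was the aim of the search, so this share is no separate check of the counts. A count recovered for a gene seen in few libraries may be short by a common factor. The main test was limma 3.58.1 (R 4.3.3) on log2(FPKM + 1), two-sided, with a variance trend, 1 fit over the 11 libraries, a floor of 1 FPKM in 3 libraries, Benjamini-Hochberg adjustment and a threshold of 0.05. The fit was tested on simulated data with independent noise in each gene. Those data held no shift shared by the genes of a library, so the test does not cover such shifts. The rest was computed in Python 3.11.15 with pandas 2.3.3 and numpy 2.4.6.

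The members and gene lists were chosen with earlier results of these data known. All 40 members are named. Values of every library are given for receptors, efflux pumps and members called in any comparison with a log2 difference of 1 or more in size, with a few further members, and of other genes in a list up to 4 with the smallest adjusted p. Alternatives were a pseudocount of 0.1, no filter, a mean of at least 5 FPKM, median-ratio scaling, equal sums (TPM), limma-voom on recovered reads, a fit of the 2 groups compared, a replicate block, leaving out each library, and leaving out both libraries of highest mitochondrial share. The last together with scaling was added after the data were seen. Promoters are from RefSeq (GRCm38.p6, the assembly of mm10), and gene positions and 50-base stretches from GENCODE M21.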

Additional observations from a re-analysis of the deposited data

Results flagged for a closer look

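In HLJDD, replicate 2 was the lowest of the 4 libraries for each of 14 members, by a gap to the next library that took up nearly the whole range of the group. Values here are as deposited, on which replicate 2 was lowest for 38 of 39 members (97.4%) and for 77.9% of all genes tested. On scaled values it was lowest for 25 members (64.1%) and for 37.6% of all genes. Its FPKM were 86.6 for Cyp3a11, 107 for Cyp3a25, 22.6 for Cyp2b10, 0.337 for Cyp2c29, 52.0 for Cyp2c65, 6.85 for Cyp2c66 and 19.2 for Cyp2j6. Among the esterases and conjugating enzymes they were 92.9 for Ces2a, 202 for Ces2e, 132 for Ugt2b34, 3.50 for Ugt2b36 and 134 for Sult1b1. Among the pumps they were 21.0 for Abcb1a and 18.6 for Abcg2. The test was made on 80 sets of 4 libraries, and chance alone marks about 1 in 20. The 14 marks all fall on 1 library, so they are not independent and cannot be weighed against that rate. Marks over all genes, or on scaled values, were not counted. The same library had 40.7% of its reads in mitochondrial transcripts, and the part of that share in these low values was not tested.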

How the results depend on the processing

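Of the member calls against ND, 6 of 11 in HFD and 6 of 8 in HLJDD held under all 17 alternatives, and no called log2 difference changed sign. Members called higher in HFD against ND numbered 9 as reported, 5 with no filter, 17 without both libraries of highest mitochondrial share and 15 with median-ratio scaling as well, the last chosen after seeing the data. Leaving out 1 library gave 4 (without ND replicate 1) to 10 (without HFD replicate 2). In HLJDD against ND they numbered 6 as reported, 12 with median-ratio scaling, 16 without both of those libraries and 16 with scaling as well, and 4 (without ND replicate 1) to 13 (without HLJDD replicate 2) when 1 library was left out. The cause of these shifts was not tested. In HLJDD against HFD, 0 members were called by limma under every alternative run. With a replicate block, 8 members were called higher and 2 lower in HFD against ND, 6 and 2 in HLJDD against ND, and 0 in HLJDD against HFD. Libraries with the same replicate number correlated by -0.27 to 0.34 in their deviations from group means, and those with other numbers by -0.61 to 0.53. Same-numbered libraries were thus no more alike, which cannot show whether they were handled in pairs. Counting error is largest for genes of few reads, such as Cyp1a1, Cyp2c29 and Gsta2 in ND.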

Other observations

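The 4 Cyp2c members lie in one stretch of chromosome 19, Cyp2c55 at 39007019 to 39042693, Cyp2c65 at 39061015 to 39093944, Cyp2c66 at 39113898 to 39187072 and Cyp2c29 at 39269405 to 39330713. From ND to HFD the mean of Cyp2c55 went from 77.3 to 6.58 FPKM, that of Cyp2c65 from 165 to 119, that of Cyp2c66 from 41.1 to 22.6 and that of Cyp2c29 from 0.361 to 2.61. Their log2 differences of HFD minus ND were -3.47, -0.53, -0.84 and 1.21, of which Cyp2c55 alone was called. Differences between these genes were not tested.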
